A study of Mus musculus with 3 samples.

Results

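The fibroblast growth factor (FGF) receptor genes Fgfr1, Fgfr2, Fgfr3 and Fgfrl1, the ligand genes Fgf1, Fgf2 and Fgf9, and the Sprouty genes Spry1, Spry2 and Spry4 were described in cultured mouse cortical astrocytes. These 10 genes were taken by symbol from a table of 19471 genes, and each had a row. The 3 libraries form 1 group: astrocytes of the cortex of wild-type (WT) pups at postnatal day 1, kept for 7 days in culture, from pups 5, 6 and 8, called replicates 1, 2 and 3. Day 1 is the age in the titles, and another label carries a name for day 0. That label also holds the word Ctrl in all 3 libraries. The series concerns the histone variant H2BE, but no genotype or age contrast is part of the libraries analysed here, so genes were compared within libraries and libraries with each other.

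FGFs are secreted proteins that bind receptor tyrosine kinases together with heparan sulfate on the cell surface. The activated receptor signals through the adaptor FRS2 and the RAS, RAF, MEK and ERK cascade, and Sprouty proteins are feedback inhibitors of that cascade whose genes are themselves induced by it. In the developing forebrain FGF signaling acts on radial glia and on astrocyte formation, and Fgfr3 is widely used as a marker of the astrocyte lineage. FGFRL1 binds FGFs but has no tyrosine kinase domain.

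Poly(A) libraries were measured, and 9858626 to 25128038 reads per library were recovered from the values of the 19471 genes. Values are the deposited normalized read counts or, where genes are compared, those counts per kilobase of the gene's merged exons. All 11 markers of astrocytes averaged at least 10 normalized counts, as did 13941 of the 19471 genes. The astrocyte markers summed to 133915, 139989 and 117814 normalized counts in replicates 1, 2 and 3. Gfap, Mlc1 and Slc1a3 were the highest, at means of 52283, 26911 and 22003, and S100b was the lowest at 68.7. Other cells were also present, with all 9 microglial markers at a mean of 10 or more and sums of 24555, 19170 and 16508. All 6 ependymal markers reached that mean too. Of 8 fibroblast and meningeal markers 7 did so, with sums of 7356, 7342 and 6966. Islr was the highest of these at a mean of 2691, while Dcn was at 14.4 and Lum at 2.20. Of 6 mural markers 4 did so, with sums of 1605, 1679 and 1325. Pdgfrb and Notch3 led that list at means of 900 and 581. Myh11 and Rgs5 were at 24.5 and 29.1, and Kcnj8 and Abcc9 at 1.01 and 0.586. These mural values alone do not show that mural cells were present. In RNA from a mixed culture, fewer cells of a type and less RNA per cell cannot be told apart.

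Receptor genes stood above the ligand genes per kilobase of merged exons, and the Sprouty genes lay between them or among the receptors. Per kilobase, the summed level of Fgfr1, Fgfr2 and Fgfr3 exceeded the summed level of the 3 ligand genes 23.4-fold in replicate 1, 19.9-fold in replicate 2 and 17.6-fold in replicate 3, a mean of 20.3 ± 2.95 (SD, n = 3). The same receptor sum was 2.21 ± 0.121 times that of the 3 Sprouty genes. Both ratios depend on the length used, which their SDs do not include. With the longest transcript as the length, Fgfr1, Fgfr2 and Fgfr3 averaged 1346, 903 and 394 per kilobase. Spry2, Spry1 and Spry4 then averaged 342, 184 and 76.7, all below the 3 receptors. Fgf9 had a mean under 10 normalized counts, so 9 of the 10 genes entered the tests. Of these, 7 lay above the median level per kilobase of the tested genes and 2, Fgf1 and Fgf2, lay below it.

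**Figure D1:**
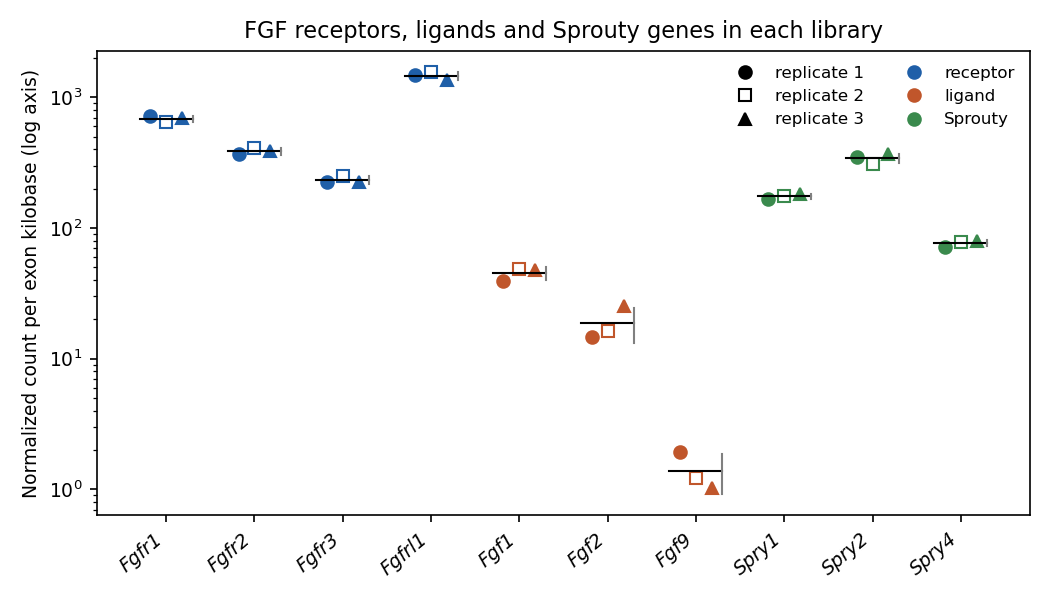
Normalized count per exon kilobase (log axis) of the 10 genes in replicates 1 (circles), 2 (open squares) and 3 (triangles), with the mean as a line and 1 SD as a grey bar. Fgfrl1 is highest at a mean of 1469 per kilobase and Fgf9 lowest at 1.39.

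Fgfr1 (ENSMUSG00000031565, chromosome 8 from 25513654 to 25575718 on the plus strand in mm10) gave the most reads of the 10 genes. It encodes the receptor tyrosine kinase most broadly expressed among the family. Its normalized counts were 7070, 6418 and 6873 in replicates 1, 2 and 3, which average 6787 ± 334 (SD, n = 3) and rest on 28045 reads. Replicate 2 was the lowest, and the 3 values lay within 1.10-fold of each other. Over 9.875 kilobases of exon this is a level of 687 ± 33.9 per kilobase, at the 94.4 percentile of tested genes.

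Fgfr2 (ENSMUSG00000030849, chromosome 7, minus strand), whose splice forms bind different sets of FGFs, had 3778, 4234 and 3989 normalized counts, a mean of 4000.5 ± 228. Replicate 2 was the highest here and replicate 1 the lowest, a spread of 1.12-fold. Its level per kilobase was 387 ± 22.1. The annotation runs the gene from 130162451 to 133123350 and places 314 bases of its exons, or 3.04%, on exons of Ctbp2 on the same strand. Reads of those bases cannot be assigned to either gene from the table, and reads per gene do not separate the splice forms. Ctbp2 had 1430, 1519 and 1507 normalized counts in replicates 1, 2 and 3.

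Fgfr3 (ENSMUSG00000054252, chromosome 5 from 33721674 to 33737068, plus strand) had 1618, 1805 and 1599 normalized counts, a mean of 1674 ± 114. Replicate 2 was again the highest. The level of this astrocyte lineage gene was 234 ± 15.9 per kilobase, below both Fgfr1 and Fgfr2 in all 3 libraries. It shares 998 exon bases, 13.9% of its exon length, with G630022F23Rik on the opposite strand, which had 8.13, 8.96 and 4.78 normalized counts. Among the 3 kinase receptors Fgfr1 held 52.5% ± 2.69 of the summed level per kilobase, Fgfr2 29.6% ± 1.64 and Fgfr3 17.9% ± 1.17. Fgfr4, the remaining kinase receptor of the family, was at 1.63, 3.77 and 0 normalized counts, near the floor.

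Fgfrl1 (ENSMUSG00000008090, chromosome 5 from 108692382 to 108706924, plus strand) had 4114, 4348 and 3798 normalized counts, a mean of 4087 ± 276. Its exons add up to 2.782 kilobases, so its level per kilobase was the highest of the 10 genes at 1469 ± 99.2, the 97.8 percentile of tested genes. That is 2.14-fold above Fgfr1 per kilobase, a log2 difference of 1.09 ± 0.10 (SE, adjusted p = 6.22e-11, limma on within-library differences). Without division by length the difference turned round, to -0.73 (adjusted p = 8.63e-08, limma), since Fgfr1 has more reads and more annotated exon. With the longest transcript as the length, the means were 1755 ± 119 for Fgfrl1 and 1346 ± 66.4 for Fgfr1.

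Among the ligand genes, Fgf1 was the highest. Fgf1 (ENSMUSG00000036585, chromosome 18 from 38838673 to 38929472, minus strand), which encodes an FGF that binds all of the receptors, had 214, 263 and 262 normalized counts, a mean of 246 ± 28.1. Replicate 1 was lower than the other 2, which were nearly equal. Its level per kilobase was 45.1 ± 5.14, at the 37.2 percentile of tested genes.

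Fgf2 (ENSMUSG00000037225, chromosome 3 from 37348346 to 37410108, plus strand) encodes basic FGF, a mitogen of neural progenitors and astrocytes that lacks a classical secretion signal. Its normalized counts were 100.04, 111 and 172 in replicates 1, 2 and 3, from 123, 236 and 144 reads. Replicate 3 stood apart from the other 2, at 1.72 times the lowest. The mean was 128 ± 38.8, and the level of 18.9 ± 5.72 per kilobase lay at the 19.7 percentile of tested genes. An exon stretch of 640 bases, 9.44% of its exon length, is shared with Nudt6 on the opposite strand, which had 17.9, 12.3 and 14.3 normalized counts. The strand setting of the counting is not given in the sources used here, so reads of that stretch cannot be told apart. A further 255 bases, 3.76%, are shared with Gm43439 on the same strand, a gene not analysed here.

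Fgf9 (ENSMUSG00000021974, chromosome 14 from 58070547 to 58112720, plus strand), known as a glia-activating factor, rested on 11, 12 and 4 reads. These correspond to 8.95, 5.66 and 4.78 normalized counts, a mean of 6.46 ± 2.19. A count of 0 reads allows up to 3 reads, or 2.44, 1.42 and 3.59 normalized counts in replicates 1, 2 and 3. Every library lay above that floor, and with under 30 reads in all the gene was not tested between libraries.

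All 3 Sprouty genes were expressed, with Spry2 the highest. Spry2 (ENSMUSG00000022114, chromosome 14 from 105891947 to 105896819, minus strand) had 726, 650 and 763 normalized counts, a mean of 713 ± 57.9, and a level of 342 ± 27.7 per kilobase. Spry1 (ENSMUSG00000037211, chromosome 3 from 37639947 to 37644598, plus strand) had 485, 512 and 532, a mean of 510 ± 23.8, and a level of 175 ± 8.18 per kilobase. It shares 710 exon bases, 24.4% of its exon length, with Gm42922 on the opposite strand, which had 1.63, 4.72 and 1.20 normalized counts. Spry4 (ENSMUSG00000024427, chromosome 18 from 38586247 to 38601415, minus strand) had 341, 375 and 378, a mean of 365 ± 20.6, and a level of 76.7 ± 4.34 per kilobase. Replicate 2 was the lowest library for Spry2 but not for the other 2 genes. Of the summed Sprouty level per kilobase, Spry2 held 57.5% ± 2.27, Spry1 29.6% ± 1.38 and Spry4 12.9% ± 0.889.

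In the genome, 2 of the ligand genes lie beside a Sprouty gene. Fgf2 and Spry1 are separated by 230 kilobases on chromosome 3, and Spry4 and Fgf1 by 237 kilobases on chromosome 18. In each of these pairs the Sprouty gene was higher per kilobase than the ligand gene in 3 of 3 libraries. The same held for every Sprouty gene against every ligand gene, so it is not particular to these pairs. The other pairs that share a chromosome lie far apart, Fgfr3 and Fgfrl1 by 75.0 megabases on chromosome 5 and Fgf9 and Spry2 by 47.8 megabases on chromosome 14.

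The order of levels per kilobase was Fgfrl1, Fgfr1, Fgfr2, Spry2, Fgfr3, Spry1, Spry4, Fgf1 and Fgf2, with Fgf9 last and not tested. Each of the 8 pairs of neighbours in that order differed in the same direction in 3 of 3 libraries, and 7 passed an adjusted p of 0.05 in limma on within-library log2 differences. Over all 36 pairs of the 9 genes, 35 passed. Such calls are the rule in these data: 97.9% of the 13896 genes tested against Fgfr1 lay above or below it. The share was 96.4% against Fgfr2, 94.9% against Spry2, 93.9% against Fgfr3, 92.6% against Spry1, 90.4% against Spry4, 88.5% against Fgf1 and 86.1% against Fgf2. The exception among the neighbours was Fgfr2 and Spry2, where the log2 difference was 0.18 (95% interval -0.06 to 0.42, adjusted p = 0.139, limma), with values of 0.07, 0.40 and 0.08 in replicates 1, 2 and 3. The steps above and below it were Fgfr1 over Fgfr2 at 0.83 ± 0.09 (SE) and Spry2 over Fgfr3 at 0.55 ± 0.11. Fgfr3 stood 0.41 ± 0.09 above Spry1, and Spry1 1.19 ± 0.10 above Spry4. Spry4 stood 0.77 ± 0.15 above Fgf1, and Fgf1 1.29 ± 0.31 above Fgf2. These errors draw on a spread pooled over genes, and the smallest p that an exact sign-flip test over 3 libraries allows is 0.25. In each pair the gene lower in the order was subtracted from all other genes, and p depends on which gene is subtracted. For Fgfr1 and Fgfr2 the adjusted p was 1.77e-17 with Fgfr2 subtracted and 1.15e-08 with Fgfr1 subtracted (limma).

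The length given to each gene set the order in the middle. With the longest transcript as the length, Fgfr2 lay 1.40 above Spry2 on the log2 scale (adjusted p = 9.14e-31, limma), and Spry2 minus Fgfr3 was -0.21 (adjusted p = 0.0633, limma). Without division, Spry2 minus Fgfr3 was -1.23 (adjusted p = 7.56e-29, limma). The receptor genes carry many annotated transcripts, 19 for Fgfr1, 27 for Fgfr2 and 17 for Fgfr3, against 1 each for Spry2 and Spry4. For Fgfr2 the merged exons come to 10.328 kilobases and the longest transcript to 4.429. With each gene's own variance over the libraries in place of the spread pooled over genes, the call of Spry2 over Fgfr3 was lost (adjusted p = 0.0542, limma without pooling). Without replicate 2, that of Fgf1 over Fgf2 was lost (1.16, adjusted p = 0.10, limma).

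**Figure D2:**
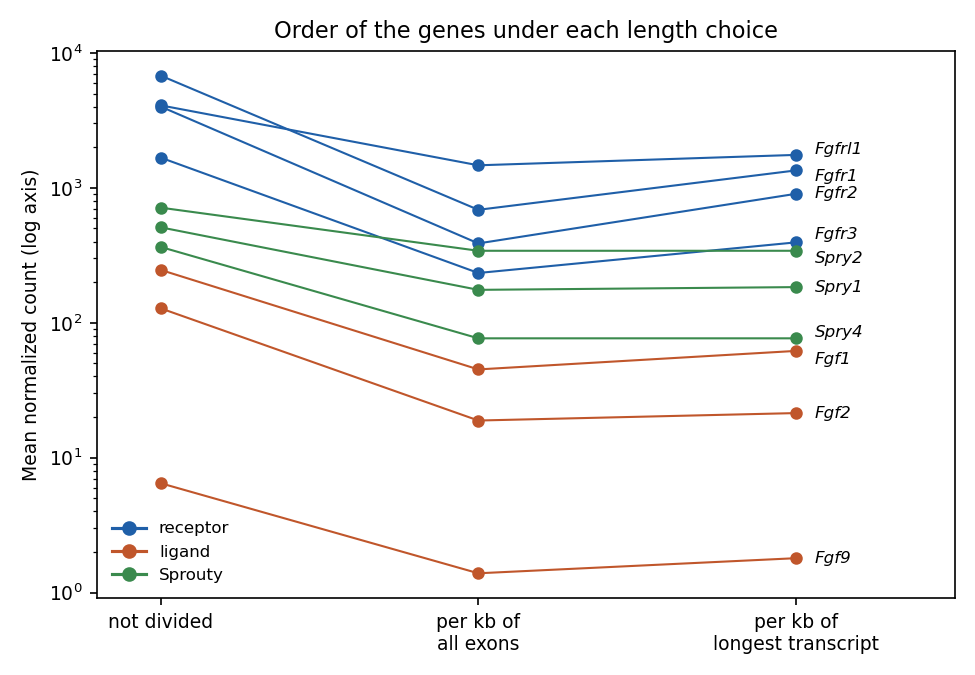
Mean normalized count (log axis) of the 10 genes undivided, per kilobase of all exons and per kilobase of the longest transcript. Fgfrl1 and Fgfr1 change places between the left and middle columns, and Spry2 lies above Fgfr3 only in the middle one, at 342 against 234 per kilobase.

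The 3 libraries were then compared for each gene. For 7 of the 9 genes the spread of reads over the libraries was larger than counting error alone gives (chi-square test against library totals, Benjamini-Hochberg adjusted p under 0.05), while those of Spry1 and Spry4 did not pass. Among all genes tested 55.4% differed, and the share was 65.8% for genes averaging at least 100, as all 9 do. The differences were small for most. The SD of log2 values was 0.07 to 0.12 for the receptor and Sprouty genes, 0.17 for Fgf1 and 0.41 for Fgf2, against a median of 0.14 over genes with a mean of 100 or more. Spry1 had the smallest SD, 0.07, at the 16.0 percentile of genes with 0.5 to 2 times its mean, and Fgf2 the largest, at the 93.2 percentile of such genes.

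Replicate 2 departed in opposite directions for different receptors. On the log2 scale Fgfr1 and Spry2 departed there from their own means by -0.08 and -0.13, while Fgfr2, Fgfr3 and Fgfrl1 departed by 0.08, 0.11 and 0.09. The summed level of the 3 kinase receptors differed little, at 1308, 1312 and 1306 per kilobase in replicates 1, 2 and 3. Without replicate 2, the calls of Fgfr1, Fgfr2, Fgfr3, Spry2 and Fgf1 ended (adjusted p of 0.0777, 0.0887, 0.694, 0.558 and 0.0756, chi-square test), and 2 genes stayed called, Fgfrl1 and Fgf2. Over all genes, 5415 were called without replicate 2, against 7726 with all libraries. Without replicate 1 the counts were 4958 over all genes and 6 of the members, and without replicate 3 they were 5156 and 6. Replicate 2 had the most reads. It also had the highest sums of astrocyte, mural and oligodendrocyte precursor markers. The precursor sums were 7817, 8877 and 6390 over 6 genes, 5 with a mean of 10 or more. Mlc1, Aldh1l1 and the precursor marker Sox10 were highest in replicate 1. Sox9, at 2072, 2018 and 2237, was highest in replicate 3 and lowest in replicate 2. The remaining astrocyte and precursor markers were highest in replicate 2. Sums of endothelial and mature oligodendrocyte markers were lowest in replicate 2. The neuronal sum was also the lowest there (1158, 773 and 1185 over 8 genes, 5 with a mean of 10 or more), with Syt1 at 222, 35.9 and 244 and Stmn2 at 701, 527 and 780. Of the 8 neuronal genes 4 were lowest in replicate 2. Tubb3, at 190, 162 and 118, was lowest in replicate 3, and Rbfox3, at 4.88, 8.49 and 9.57, in replicate 1. Gad1 and Slc17a7 were highest in replicate 2, and Slc17a7 was at 0 in replicates 1 and 3. The sum of ependymal markers was also the lowest there (14091, 10375 and 12008), and 6 of these 6 genes were lowest in replicate 2, among them Foxj1 at 11671, 8764 and 9465 and Rsph1 at 955, 588 and 938. The part of these differences in the receptor values was not tested.

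**Figure D3:**
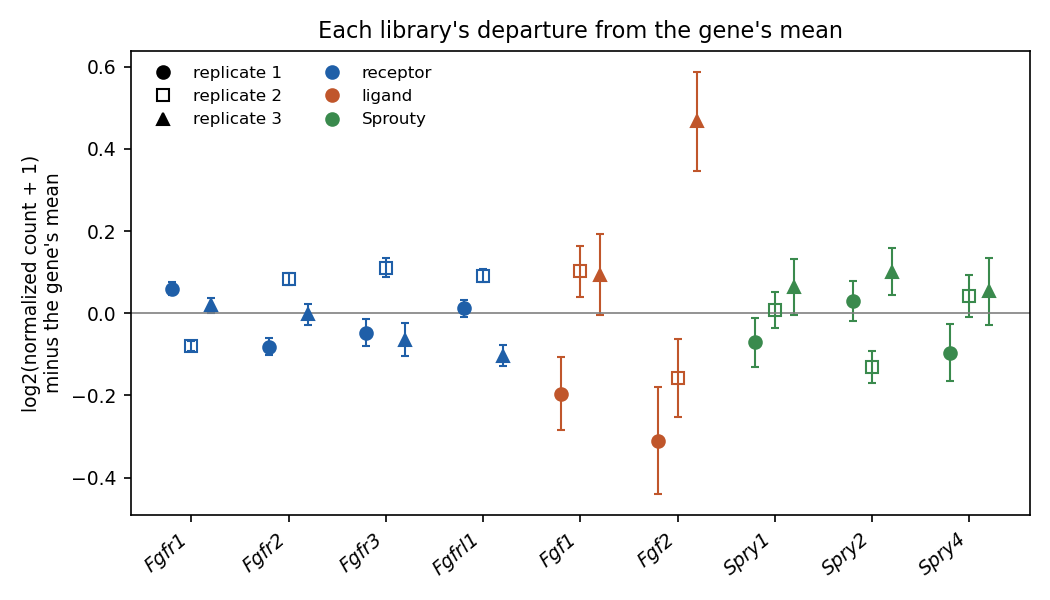
Departure of each library from the gene's own mean of log2(normalized count + 1) for the 9 genes tested, with bars of 1 SD of read counting. Fgf2 in replicate 3 is the farthest from 0, at 0.47, and replicate 2 lies below 0 for Fgfr1 and Spry2 and above it for Fgfr2, Fgfr3 and Fgfrl1.

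For Fgf2 the difference rested on replicate 3. Its chi-square per degree of freedom was 12.1 (adjusted p = 2.34e-05) over all libraries and 0.708 (adjusted p = 0.548) without replicate 3. The call of Fgf1 was near the threshold over all libraries (adjusted p = 0.0447, chi-square test). It ended without replicate 1 (adjusted p = 0.998, chi-square test) and also without replicate 2 (adjusted p = 0.0756, chi-square test). Replicate 3 was the shallowest library. Of the 9 cell type marker lists, the neuronal and endothelial ones had their highest sums in replicate 3, the endothelial at 787, 765 and 845 over 5 genes of which 3 had a mean of 10 or more. Of these 5 genes 2 were highest in replicate 3, Kdr at 668, 644 and 757 and Pecam1 at 4.88, 4.25 and 7.17. Flt1, at 96.8, 106 and 69.4, and Tek were lowest there, and no endothelial marker in the table was at 0 in a library. Of the 8 neuronal genes 4 were highest in replicate 3, while Tubb3 and Gad1 were lowest there. The part of these cells and of depth in the Fgf2 values was not tested. The 3 genes with the most similar profile over the libraries, out of 10570 with a mean of 100 or more, were Set, Snrpd1 and Gulp1, with root-mean-square differences of 0.01, 0.01 and 0.02 on the centred log2 scale. Set, a histone chaperone gene with processed copies among which reads could be split, had 996, 1109 and 1677 normalized counts. With 3 libraries many genes match by such a measure, and 133 lay within 0.1.

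The other genes of the pathway were read from 9 lists, of whose 98 genes 86 were in the table and 78 had a mean of 10 or more. Against Fgfr1 per kilobase, 7 of the 78 lay above, 70 below and 1 was not called (limma), which makes 8.97% above, where 4.68% of all genes tested did so and 93.2% lay below. The median log2 difference from Fgfr1 was -2.14 over the lists and -3.27 over all genes tested. The median over the 8 other tested members of the receptor, ligand and Sprouty genes was -1.76. With the longest transcript as the length 4 pathway genes lay above Fgfr1, and without division 2.

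Other FGF ligand genes were low. Of 12 further secreted ligands 4 were in the table, Fgf18 at a mean of 13.8 ± 1.55 normalized counts, Fgf7 at 37.6 ± 1.23, Fgf17 at 0.827 ± 0.362 and Fgf4 at 1.27 ± 1.20. Fgf7, a ligand of mesenchymal cells that acts on an epithelial form of Fgfr2, had 39.04, 36.8 and 37.1 in the 3 libraries. The endocrine ligand gene Fgf23 and the Klotho co-receptor genes Kl and Klb had means of 1.68, 2.74 and 0.314, all under 10. The intracellular FGF homologous factors, which bind sodium channels and do not signal through the receptors, were all in the table: Fgf13 at 139 ± 12.1, Fgf12 at 122 ± 26.7, Fgf14 at 51.5 ± 6.59 and Fgf11 at 38.7 ± 0.388.

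Receptor partners and heparan sulfate genes included members above Fgfr1. The adhesion molecule gene Cdh2, whose product binds FGFR1, had 7978, 8712 and 9965 normalized counts and lay 0.68 above Fgfr1 per kilobase on the log2 scale (adjusted p = 3.36e-07, limma). Ncam1 and the ligand-binding protein gene Fgfbp3 followed at 1693 ± 39.6 and 269 ± 66.0 normalized counts. Of the 23 tested heparan sulfate genes 4 lay above Fgfr1 and 19 below. The glypican gene Gpc4 was the highest at 3793 ± 361 per kilobase, 2.46 above Fgfr1, followed by the syndecan genes Sdc4 at 1532 ± 13.7 and Sdc2 at 973 ± 54.2. The sulfotransferase gene Ndst1 also lay above, by 0.44. Sdc2 lay below Fgfr1 with either other length choice, and Sdc4 did so without division. The call of Ndst1 ended with either choice, at -0.18 with the longest transcript (adjusted p = 0.0659, limma) and 0.18 without division (adjusted p = 0.0591, limma). Gpc5 was the lowest at a mean of 2.20 ± 1.17 normalized counts.

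Of the 12 adaptors and proximal effectors, 11 lay below Fgfr1 and none above. The phosphatase gene Ptpn11, which encodes SHP2, was the 1 not called, at 630 ± 16.1 per kilobase (log2 difference of -0.12, adjusted p = 0.197, limma). It was called below Fgfr1 without division (-0.52, adjusted p = 1.02e-05, limma) and with the longest transcript (-1.08, adjusted p = 4.38e-11, limma). Crk and Grb2 followed at 472 ± 60.9 and 439 ± 9.50 per kilobase, and Frs3 was the lowest at 22.7 ± 2.78. With separate variances the call of Crk was lost (adjusted p = 0.0686, limma without pooling). In the RAS to ERK list Mapk3, which encodes ERK1, was the 1 of 13 above Fgfr1, at 885 ± 114 per kilobase. That place turned round with either other length choice and was lost with separate variances (adjusted p = 0.0671, limma without pooling). Map2k1, whose call below Fgfr1 was also lost with separate variances (adjusted p = 0.0683, limma without pooling), stood at 492 ± 60.3 and the scaffold gene Ksr1 at 48.2 ± 6.93 per kilobase.

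Feedback inhibitors and target factors of the pathway were mostly expressed. All 8 tested feedback inhibitors lay below Fgfr1, led by the ERK phosphatase gene Dusp6 at 476 ± 17.7 per kilobase, above the level of Spry2, and by Spred1 at 222 ± 33.7 and Spred2 at 201 ± 13.0. Dusp9 was at a mean of 1.01 ± 0.884 normalized counts. Of the 9 target genes the cyclin gene Ccnd1 lay above Fgfr1, at 1405 ± 126 per kilobase, while without division its difference from Fgfr1 was -0.04 and did not pass (adjusted p = 0.679, limma). The immediate early genes Fos and Egr1 stood at 593 ± 58.4 and 465 ± 51.4 per kilobase, and Etv1 was the lowest at 4.40 ± 0.482. For Fos the log2 difference of -0.22 from Fgfr1 did not pass with separate variances or without replicate 1 or replicate 2.

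**Figure D4:**
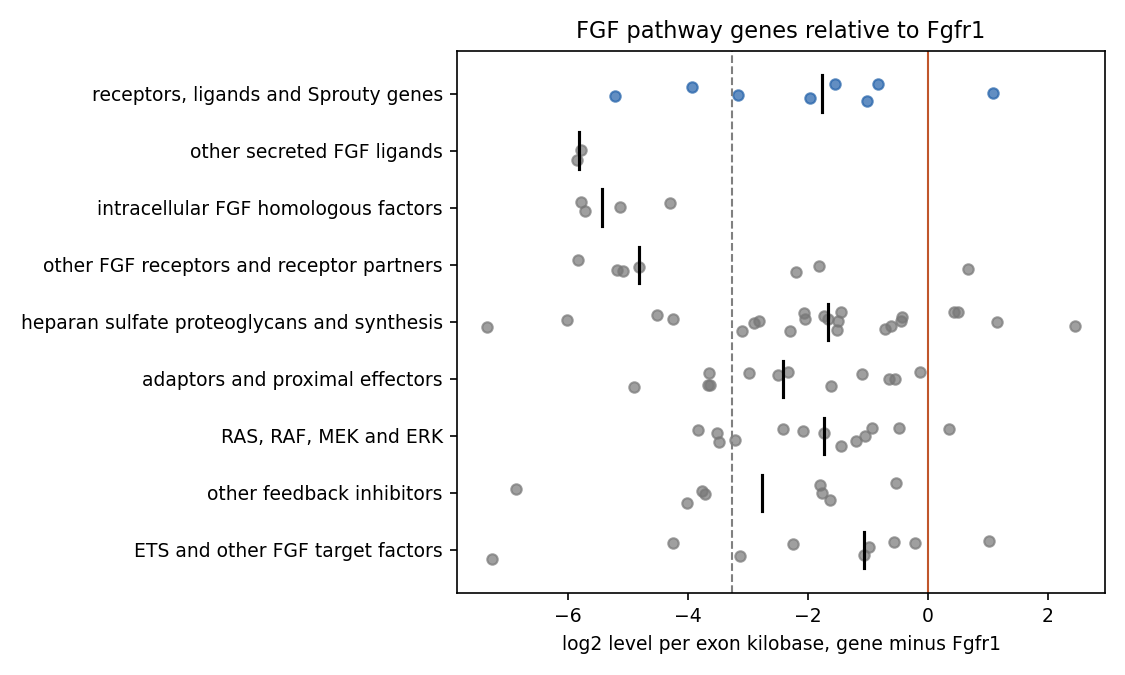
Log2 level per exon kilobase of each tested gene minus Fgfr1, by list, with the list median as a black bar, Fgfr1 at 0 and the median of all genes tested, -3.27, as a dashed line. The blue points are the 8 other receptor, ligand and Sprouty genes, of which Fgfrl1 alone lies above 0.

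Reads that differed between libraries were found in 51 of the 78 pathway genes, or 65.4%, where the share was 55.4% over all genes tested and 65.8% over those averaging at least 100. By list this was 12 of 13 RAS to ERK genes, 16 of 23 heparan sulfate genes and 7 of 9 target genes. It was 7 of 12 adaptors, 4 of 7 other receptors and receptor partners, and 4 of 8 feedback inhibitors. Among the other ligands neither of the tested genes Fgf7 and Fgf18 passed, and 1 of 4 homologous factors did, Fgf12 with 91.9, 130 and 143 normalized counts.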

How the data were processed

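Gene expression was measured by RNA sequencing with a stranded poly(A) library kit, per the labels' protocols. Values are a deposited signal, the read count of a gene that the authors divided by a size factor for each library. DESeq2 and genome build mm10 are named in the submitters' processing notes, while for the aligner, counting tool, strand setting and annotation nothing is stated in these notes or labels. Every value was a whole multiple of 1 read's worth within 0.05 reads, so whole reads were recovered for 100% of values, and the chi-square test on them called 7726 of 13941 genes. All value columns were assigned.

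Exon length, position and overlaps came from GENCODE vM21, also on mm10, where 19366 genes (99.5%) were found. Levels are log2(normalized count + 1) minus log2 of exon kilobases, so folds of low genes are understated. Genes averaging at least 10 normalized counts were tested with an intercept-only limma 3.58.1 model with a trended prior on within-library differences (R 4.3.3), Benjamini-Hochberg adjusted over 13896 genes. A chi-square test against library totals compared the recovered reads of these genes, given 30 reads in total. It compares these libraries, and reads are not independent molecules. Alternatives were a pseudocount of 0.1, other lengths, filters and scalings (with edgeR 4.0.16), separate variances and each library left out. Procedures were tested on simulated data. Python 3.11.15, pandas 2.3.3, SciPy 1.17.1 and matplotlib 3.10.9 were also used.

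The labels call the libraries biological replicates, and p-values cannot separate animal from culture or preparation. The members and lists were chosen with earlier results of these data known. Named were the 10 members, the 3 highest and the lowest gene per kilobase of each pathway list, and the 3 genes most like the most variable member. A gene that this rule selects is not reported here. Ndst1, Fgf12 and single cell type markers were named after their values were seen.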

Additional observations from a re-analysis of the deposited data

How the results depend on the processing

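Under the alternatives run, the count of genes above Fgfr1 per kilobase, 651 as reported, was 143 without division by length and 399 with the longest transcript as the length. For pathway list genes it was 2 and 4, against 7, and for the receptor, ligand and Sprouty genes 0 without division, against 1. Without division, the log2 difference from Fgfr1 changed sign for Fgfrl1 (-0.73), Ccnd1 (-0.040), Mapk3 (-1.77), Sdc2 (-0.98) and Sdc4 (-0.80), and that of Spry2 from Fgfr3 was -1.23. With the longest transcript it changed sign for Mapk3 (-0.28), Ndst1 (-0.18) and Sdc2 (-0.47), and Spry2 minus Fgfr3 was -0.21. The length used is by construction the only change in these alternatives. Leaving out a replicate gave 4958 to 5415 genes whose reads differed between libraries, against 7726. Among the receptor, ligand and Sprouty genes it gave 2 to 6, against 7. Without replicate 2 these counts were 5415 and 2. The pseudocount, the filters, CPM and the scaling of the read comparison changed no sign and no such count by more than 1.5 times. With separate variances 66 pathway list genes lay below Fgfr1, against 70, and Crk and Map2k1 were not called. Fgf9, with 27 reads in all, limits what can be said of that ligand. No contrast between conditions, paired or not, was possible because the libraries form a single group.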
